A study of Brassica rapa and Brassica rapa x Brassica nigra and Brassica nigra with 18 samples.

Results

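This section describes 105 genes whose messenger RNA was counted in anthers of a parental Brassica species and was almost or wholly missing from the counts of a hybrid that carries that parent's genome. The hybrid was a synthetic allohaploid (AB) of Brassica rapa (genome AA, the mother) and Brassica nigra (genome BB, the father). A gene was taken when its parent had a mean of at least 10 CPM at meiosis or at mitosis and the 3 AB libraries of the same stage together held at most 3 counts. CPM here is a gene's count scaled to 1000000 counts on genes of the same genome, so a level in AB is relative to the other A genes, or the other B genes, of the same library. Of the 79644 gene identifiers of the series, 18 A genes, compared between AA and AB, and 87 B genes, compared between BB and AB, met this rule. The rule uses the parental and the AB values of a stage, so the contrast at that stage is given as a description, with no test.

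The series holds 18 libraries of anther RNA in 6 groups of 3: AA, BB and AB, each at meiosis (spore formation, labelled young anther) and at mitosis (gamete formation, labelled anther). No treatment, plant age or cultivar is given in the labels, and all 18 samples carry the same note on growth, which names the cross and the haploid state. Nothing in the labels says that replicates are different plants, or that the AA and BB plants sequenced were the ones crossed. The p-values below therefore rest on the scatter among these libraries alone, and that scatter may be technical. Library totals ran from 9782001 to 12161111 counts. None of the identifiers could be paired with a gene name, so the roles of the genes are not given and the labelled tissue could not be checked against marker genes. In bulk anthers, fewer cells of a type and less RNA per cell cannot be told apart.

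An allohaploid has a single set of chromosomes from each of its parent species, and these chromosomes have no identical partner at meiosis. Anthers at meiosis hold the dividing spore mother cells within a wall whose inner layer, the tapetum, feeds them, and at the later stage they hold microspores that divide and become pollen, so the genes in use change strongly between the stages. Plants that combine the genomes of different species are known to use the copies from the parents unequally, and some parental copies can fall silent or be lost.

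More B genes than A genes were undetected in AB. At meiosis 64 B genes met the rule, which was 0.602% of the 10631 B genes with at least 10 CPM in BB, against 10 A genes, or 0.086% of the 11631 A genes with at least 10 CPM in AA. At mitosis there were 44 B genes of 11223, or 0.392%, and 11 A genes of 11169, or 0.0985%. Over both stages the members made up 0.657% of 13243 B genes and 0.126% of 14271 A genes. These are counts of genes against different parents, and the difference between the genomes was not tested. The number of A genes at meiosis was 19 without AB replicate 1 at meiosis, where the limit of 3 counts then applied to 2 libraries.

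Most members had no count at all. At meiosis 45 of the 64 B genes and 7 of the 10 A genes had 0 counts in the 3 AB libraries, and at mitosis 28 of 44 and 6 of 11 did. The B genes with at least 10 CPM in BB at meiosis numbered 45 at 0 AB counts, 8 at 1 count, 7 at 2 counts and 4 at 3 counts, while all sums from 4 to 10 counts together held 25 genes. At mitosis 28 B genes had 0 counts and 16 had a sum from 4 to 10. Among A genes at meiosis, 7 had 0 counts and 18 had a sum from 4 to 10, and at mitosis the numbers were 6 and 5. A sum of 0 was thus the most frequent single value up to 10 counts in all 4 of these sets.

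**Figure D1:**
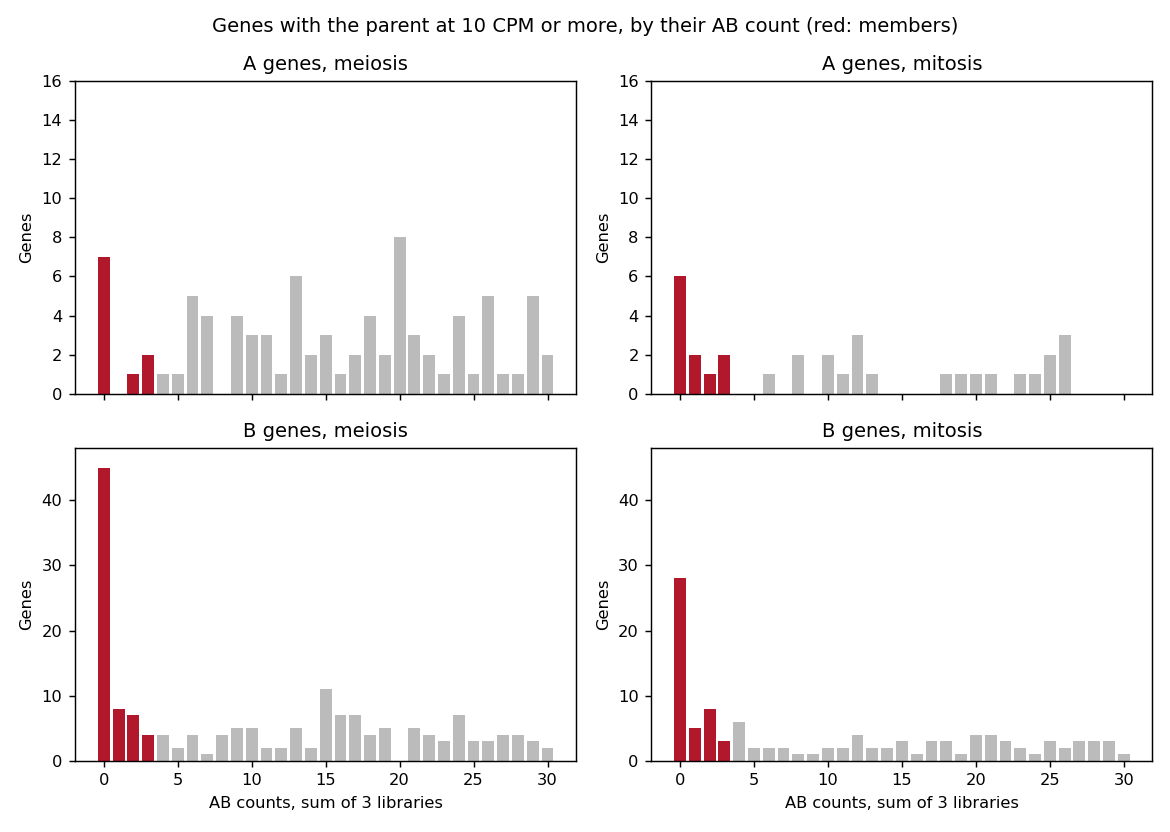
Number of genes (vertical axis) by their summed count over the 3 AB libraries of a stage (horizontal axis, 0 to 30), among genes with at least 10 CPM in the parent; red bars are the members and grey bars are genes above the limit of 3 counts. In B genes the bar at 0 holds 45 genes at meiosis and 28 at mitosis, and the bars above it are far lower.

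The minimum of 10 CPM in the parent fixes that a member at its parental level would have drawn many counts in AB. The AB libraries held 17190251 counts on A genes and 15317781 on B genes at meiosis, and 17294366 and 15233406 at mitosis, each over 3 libraries. At its parental CPM, the member with the lowest level would have drawn 179 counts among A genes at meiosis, 197 among A genes at mitosis, 154 among B genes at meiosis and 155 among B genes at mitosis. The medians over members were 334, 248, 278 and 262 counts. A count of 0 over 3 libraries allows up to 3 counts, and against this floor the B members at 0 were at least 51.2-fold lower in AB at meiosis, with a median bound of 92.7-fold and a highest bound of 1788-fold. For B genes at mitosis the bounds ran from 51.6-fold to 840-fold, for A genes at meiosis from 73.3-fold to 1658-fold and for A genes at mitosis from 65.6-fold to 300-fold. Floors and intervals cover counting error only.

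The few AB counts did not come from a single library. The 64 B members at meiosis drew 9, 11 and 14 counts in AB replicates 1, 2 and 3, where the BB libraries had 24776, 23881 and 25589 counts on the same genes. At mitosis the 44 B members drew 10, 11 and 9 counts in AB, against 12208, 11592 and 10753 in BB. The A members drew 2, 4 and 2 counts at meiosis and 2, 4 and 4 at mitosis. Together the members took 0.273% ± 0.00311 of the B counts in BB at meiosis and 0.135% ± 0.00315 at mitosis (SD, n = 3 here and below), and 0.0659% ± 0.000598 and 0.0274% ± 0.000524 of the A counts in AA.

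Choices made without a library were compared with that library, as a description of how alike the replicates of a stage were. Replicate 1, 2 or 3 was left out in turn, and genes were chosen on the other libraries with at least 10 CPM in the parent and 0 counts in AB. In that order, the AB library left out had 0 counts for 45 of 48, 46 of 50 and 43 of 49 B genes at meiosis, and its highest count was 4. Over all B genes with at least 10 CPM in those BB libraries, of which the chosen genes are a part, the AB library left out had 0 counts for 0.554%, 0.602% and 0.536%. At mitosis the numbers were 28 of 34, 28 of 32 and 27 of 29 B genes, again with a highest count of 4, against 0.356% to 0.365% of all B genes past the minimum. For A genes they were 8 of 9, 7 of 9 and 7 of 7 at meiosis, with a highest count of 6, and 6 of 6, 6 of 7 and 6 of 7 at mitosis, with a highest count of 1. Over all A genes past the minimum the shares were 0.103% to 0.138% at meiosis and 0.0626% to 0.0899% at mitosis.

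**Figure D2:**
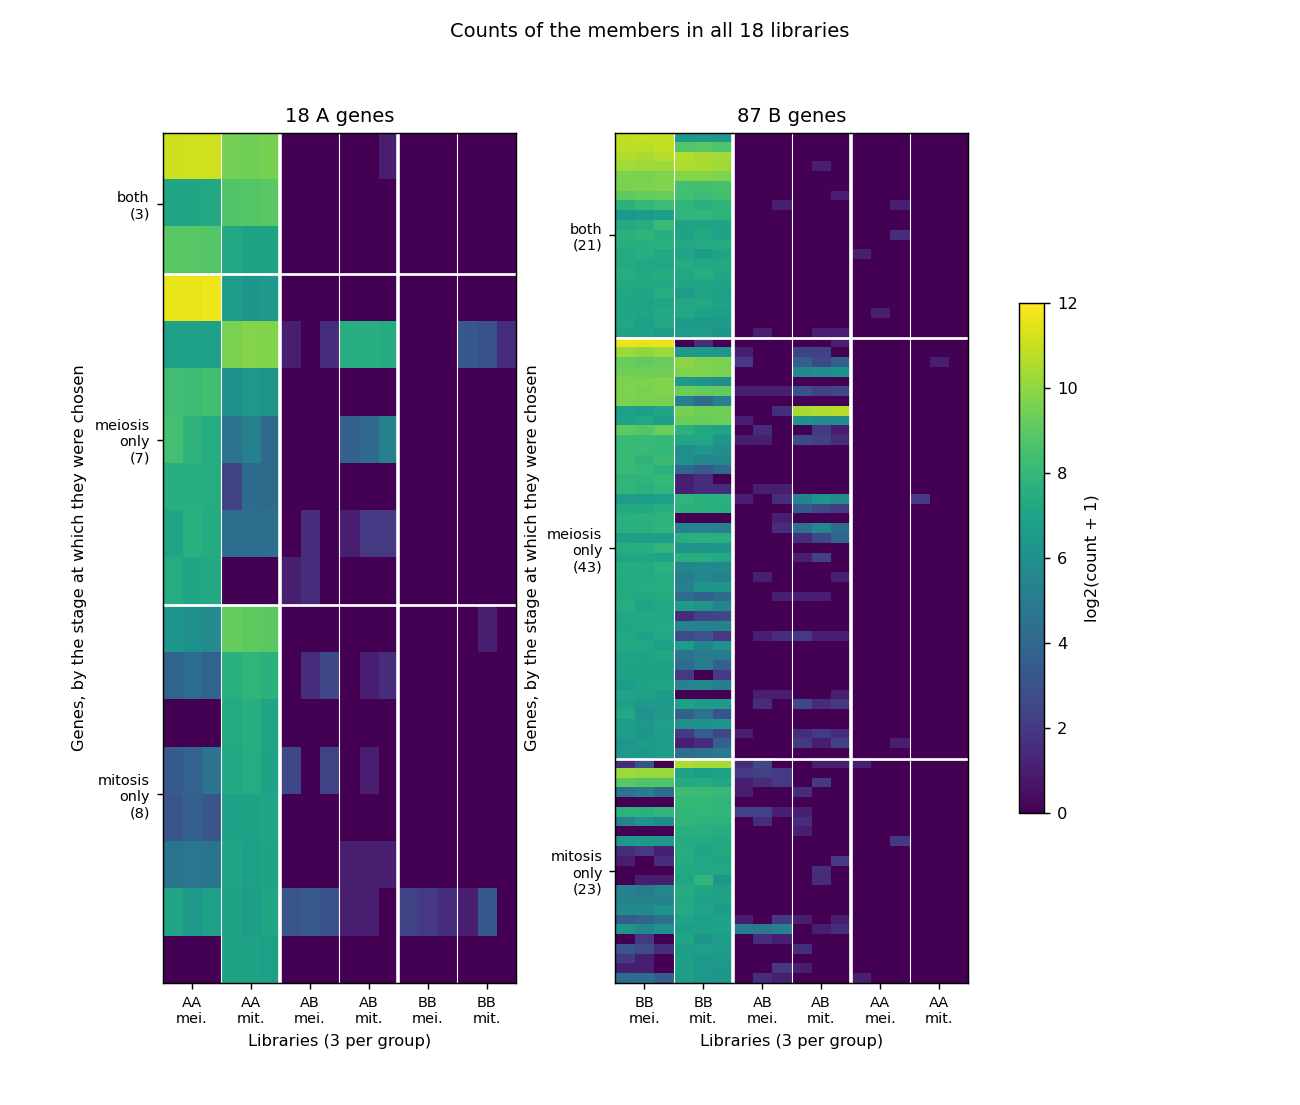
Counts of the 18 A members (left) and the 87 B members (right) in all 18 libraries, as log2(count + 1) from dark (0) to bright (12); rows are genes, grouped by the stage or stages at which they were chosen and ordered by the higher parental level, and columns are the 3 libraries of each group. The parental columns are bright at the stage of choice, and the AB columns are dark apart from some rows at the other stage.

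The members stood at moderate levels in the parents. Their median parental level was 18.2 CPM for B genes at meiosis and 17.2 CPM at mitosis, against 35.5 and 32.1 CPM for all B genes past the minimum of 10 CPM. For A genes the medians were 19.4 and 14.4 CPM, against 34.9 and 31.1 CPM. Scaled by gene length, as FPKM, which divides a count by gene length and library total, the B members had a median of 26.0 in BB at meiosis against 28.4 for all B genes past the minimum, and 22.7 against 24.7 at mitosis. The median A member had 32.0 FPKM in AA at meiosis against 31.5, and 11.4 against 27.6 at mitosis. At meiosis 36 B members lay between 10 and 20 CPM, 1.23% of the genes in that range, and 6 lay at 100 CPM or more, which was 0.284% of 2115 genes. At the edge of the rule, the lowest B member at meiosis had 10.02 CPM in BB and the highest gene left out for its parental level had 9.98 CPM. These values were 10.2 and 9.85 CPM for B genes at mitosis, 10.4 and 9.83 CPM for A genes at meiosis and 11.4 and 9.82 CPM for A genes at mitosis. On the side of AB, 4 and 3 B members had 3 counts at meiosis and mitosis, and 4 and 6 B genes were left out with 4 counts. The median coefficient of variation among the parental libraries was 6.71% for B members at meiosis against 6.01% for all B genes past the minimum. At mitosis it was 7.74% against 7.06%. For A members it was 4.58% against 5.57% at meiosis and 8.82% against 7.17% at mitosis. Some members were under 10 CPM in at least 1 parental library. These were 7 B members at meiosis, 8 B members at mitosis and 1 A member at mitosis.

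The members had a lower median coding length than the other genes, a difference that was not tested. The median coding length of the 87 B members was 744 bases, with a middle 50% from 521 to 1094 bases, against 1146 bases for all 13243 B genes past the minimum. Of the B members 35.6% had a coding length under 600 bases, against 17.2% of all B genes past the minimum. The 18 A members had a median of 948 bases against 1104 bases, and 38.9% of them, or 7 genes, were under 600 bases, against 18.7%. Length was not part of the rule. The members also lay nearer the minimum of 10 CPM than the genes they are set against, and its part in the lengths was not tested.

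**Figure D3:**
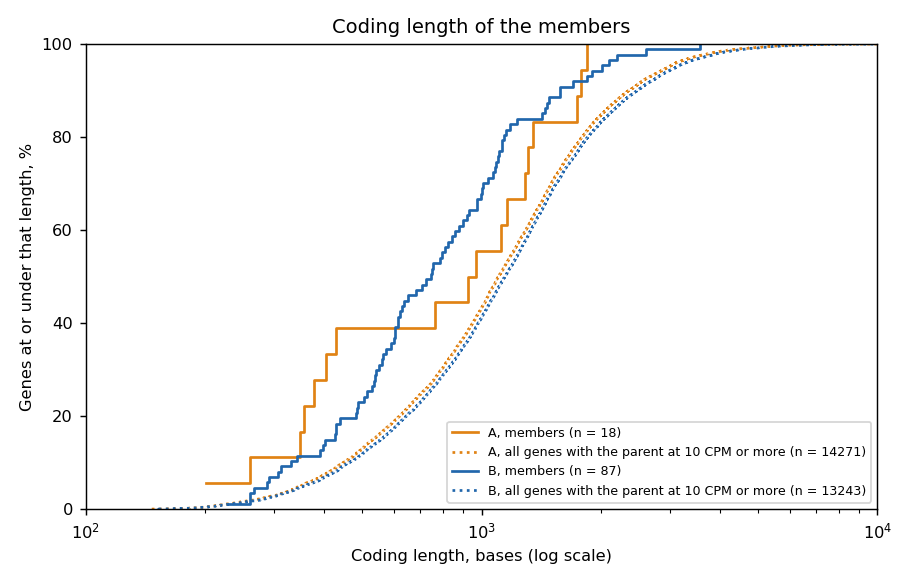
Share of genes (vertical axis, %) at or under a coding length (horizontal axis, bases, log scale) for A genes in orange and B genes in blue; solid lines are the members and dotted lines all genes with at least 10 CPM in the parent at either stage. Both solid lines lie to the left of the dotted ones over most of their range, with medians of 948 and 744 bases against 1104 and 1146.

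Counts on the members in the other parent were rare. Of the 87 B members, 77 had 0 counts in all 6 AA libraries and the other 10 had between 1 and 3. Of the 18 A members, 15 had 0 counts in BB and 1 had between 1 and 3. The remaining A members were BjuA013845, with 19 counts over the 6 BB libraries, and BjuA020535, with 18. The same shares over all genes past the minimum were not computed, so rare counts are not shown to be particular to the members. The table lists A and B genes side by side for every library, and a count is uncertain where a gene has a near-identical copy that could take some of its reads.

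By stage, the members fell into 3 sets. Chosen at both stages were 21 B genes and 3 A genes, chosen at meiosis alone 43 and 7, and chosen at mitosis alone 23 and 8. In 44 of the 87 B genes and 9 of the 18 A genes, none of the 6 AB libraries held a count. In the parent, 8 of the 10 A members chosen at meiosis were at least 2-fold higher there than at mitosis (80.0%, against 46.6% of all A genes past the minimum at meiosis). Of the 64 B members chosen at meiosis, 53.1% were at least 2-fold higher at meiosis in BB, against 33.2% of all B genes past the minimum. At mitosis 72.7% of the A members and 47.7% of the B members were at least 2-fold higher than at meiosis in the parent, against 29.2% and 29.0%.

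The genes chosen at both stages give the plainest cases. Of the 21 B genes, 17 had 0 counts in all 6 AB libraries and the highest sum was 3 counts, while their levels in BB ran from 10.4 to 210 CPM at meiosis and from 10.2 to 165 CPM at mitosis. In BB, 17 of the 21 kept within 2-fold between the stages, 3 were at least 2-fold higher at meiosis and 1 at mitosis. BjuB044767 had 1543, 1428 and 1576 counts in the BB libraries at meiosis and 1552, 1363 and 1310 at mitosis, and 0 in every AB library. Its BB level was 167 ± 5.16 CPM at meiosis and 165 ± 7.55 CPM at mitosis, so AB was at least 853-fold and 840-fold lower. BjuB005259 had 1288, 1195 and 1210 counts in BB at meiosis and 1487, 1445 and 1249 at mitosis, and a single count over 6 AB libraries, in replicate 2 at mitosis. Its BB level at mitosis was 164 ± 9.53 CPM, 2494 times the AB level with a 95% counting interval from 448 to 98507. Groups did not overlap at either stage for these genes, which the rule fixes.

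Among the 3 A genes chosen at both stages, BjuA042468 had 2190, 2272 and 2232 counts in AA at meiosis and 725, 676 and 741 at mitosis. In AB it had 0 counts at meiosis and 0, 0 and 1 at mitosis. BjuA035544 had 482, 465 and 443 counts in AA at meiosis and 152, 124 and 123 at mitosis, and 0 in all 6 AB libraries. BjuA014168, with 132, 133 and 150 counts at meiosis and 428, 443 and 482 at mitosis in AA, was also at 0 throughout AB. Its level in AA thus moved the opposite way between the stages to that of BjuA042468 and BjuA035544, and the counts in AB were alike.

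The 2 B members and 1 A member with the highest parental level at meiosis were used mainly at that stage. This did not hold for all of the 6 B members at 100 CPM or more at meiosis. In BB, BjuB044767 had 167 CPM at meiosis and 165 CPM at mitosis, and BjuB005259 had 136 and 164 CPM. BjuB035908 had 3202, 3126 and 3195 counts in BB at meiosis and 0, 2 and 0 at mitosis, with 0 counts in AB at meiosis and 0, 0 and 1 at mitosis. Its level in BB at meiosis was 350 ± 5.26 CPM, or 276 ± 4.23 FPKM, and AB was at least 1788-fold lower there. BjuB014194 had 1836, 1878 and 1988 counts in BB at meiosis and 83, 91 and 85 at mitosis, and it was at 0 in all 6 AB libraries. BjuA037316 had 2998, 3128 and 3263 counts in AA at meiosis, or 145 ± 6.28 FPKM, and 104, 78 and 86 at mitosis. It was at 0 in all AB libraries, at least 1658-fold lower at meiosis. Of the A members chosen at mitosis, BjuA035528 had the highest AA level there after BjuA042468, with 582, 522 and 506 counts in AA, or 239 ± 18.75 FPKM. It had 77, 64 and 55 counts in AA at meiosis and 0 in all 6 AB libraries.

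**Figure D4:**
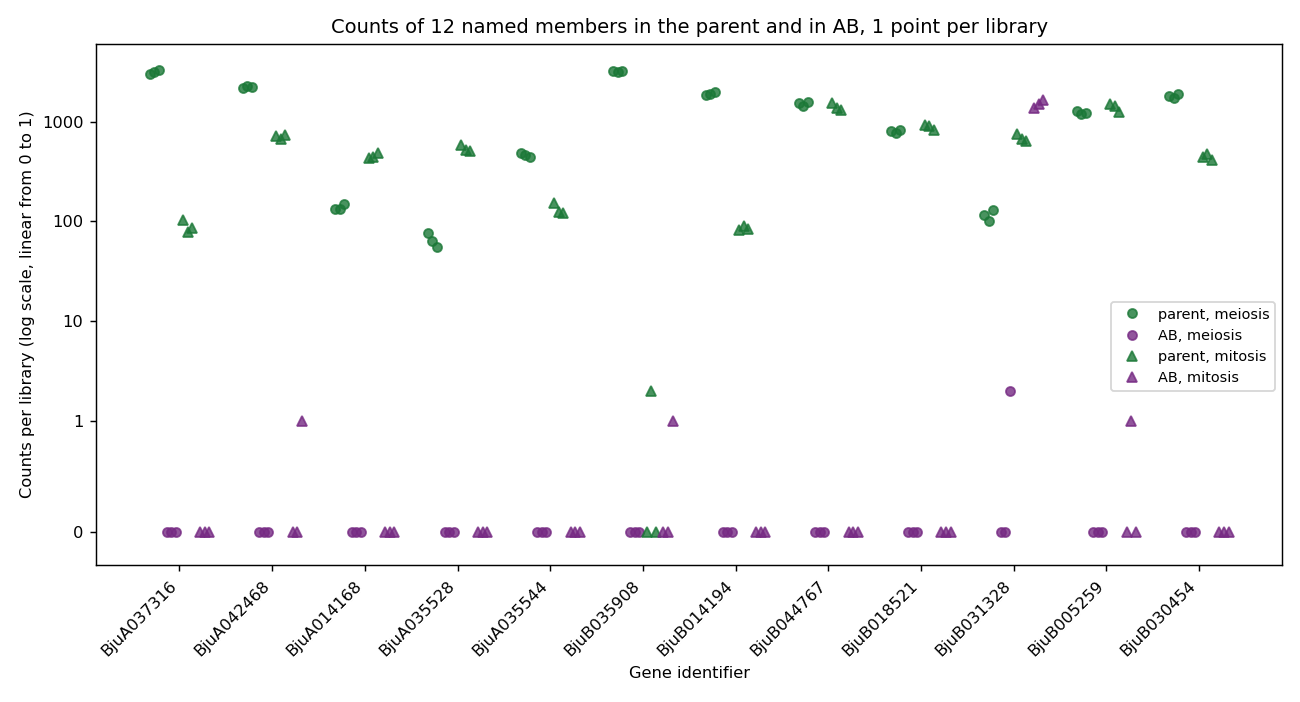
Counts per library (vertical axis, log scale that is linear between 0 and 1) of the 12 members named by a fixed rule; green points are the 3 parental libraries and purple points the 3 AB libraries, circles at meiosis and triangles at mitosis. The purple points lie at 0, 1 or 2 counts for all 12 genes at both stages apart from BjuB031328, whose AB libraries at mitosis hold 1357 to 1655 counts.

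The stage that the choice did not use allows a test. Genes chosen at meiosis were tested at mitosis, and genes chosen at mitosis were tested at meiosis, with the fit made over all genes of the genome. All members passed the filter on low counts, but through the parental libraries of the stage of choice, in which they had been chosen as high. At mitosis, 55 of the 64 B genes chosen at meiosis were lower in AB than in BB, 1 was higher and 8 were not called (edgeR's quasi-likelihood test, Benjamini-Hochberg adjusted p under 0.05). Over all 21204 B genes tested at mitosis, 30.5% were lower and 26.8% higher. At meiosis, 34 of the 44 B genes chosen at mitosis were lower in AB, and 10 were not called, against a background of 31.6% lower. The B genes called lower had BB levels down to 0.198 CPM at mitosis and 0.222 CPM at meiosis, close to the floor of 3 AB counts. For BjuB028345 and BjuB016169 at mitosis, named after their values were seen, the bounds against that floor were only 1.01-fold and 1.19-fold. Among A genes, 8 of 10 chosen at meiosis were lower at mitosis in AB than in AA, against 28.1% of 23143, and 8 of 11 chosen at mitosis were lower at meiosis, against 25.8%. No A member, and none of the 44 B genes, was higher with edgeR, DESeq2 or limma. With edgeR, 27.7% of all A genes tested were higher at meiosis and 24.2% at mitosis. For all B genes at meiosis the share was 31.9%. With limma few of all genes were higher, at 1523 and 2283 of 23143 A genes at meiosis and mitosis. For B genes at meiosis it was 2421 of 21204. At an unadjusted p under 0.05 in edgeR, 0 A members and 0 of the 44 B members were higher.

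Part of these calls were on genes that also met the rule at the tested stage. Such genes made up 21 of the 55 B genes lower at mitosis, 21 of the 34 lower at meiosis, and 3 of the 8 A genes in each test. Meeting the rule at the tested stage fixes the direction there. Of the genes that did not meet it there, 34 of 43 B genes were lower at mitosis and 13 of 23 at meiosis. For A genes these were 5 of 7 and 5 of 8. This split itself uses the values of the tested stage. With the filter and the fit restricted to the groups compared, 50 of the 64 B genes chosen at meiosis were tested and 48 were lower, and 31 of the 44 chosen at mitosis were tested and 30 were lower. For A genes 8 of 10 were then tested and 7 lower at mitosis, and 6 of 11 were tested and 6 lower at meiosis. Over all B genes so tested, 5626 of 19185 were lower at mitosis and 6423 of 18186 at meiosis. For all A genes these were 5598 of 20713 and 5949 of 20072. The members so tested still include those that met the rule at that stage. A gene near 0 in AB passes this filter through the parent alone, so a call of lower is then nearly fixed.

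The calls covered nearly all members that the parent used at the other stage. Of the 64 B genes chosen at meiosis, 33 had at least 10 CPM in BB at mitosis too, and 32 of these were lower in AB. Of the 44 chosen at mitosis, 24 had at least 10 CPM in BB at meiosis, and all 24 were lower. For A genes the numbers were 4 of 4 and 3 of 3. Of the 33 and 24 B genes, 21 and 21 also met the rule at the tested stage, which makes them lower by definition. So did 3 of the 4 and 3 of the 3 A genes. Over all B genes past the minimum, 43.1% were lower at mitosis and 46.3% at meiosis, and over all A genes 42.6% and 34.4%. With genes at 0 counts in AB set to the floor of 3 counts, the median log2 difference was -5.34 over 60 B genes chosen at meiosis and -6.39 over 37 B genes chosen at mitosis. For A genes it was -5.35 over 9 genes and -3.69 over 9 genes. These sets include the genes that also met the rule at the tested stage, so the medians are a description with no test. The median over all genes tested lay between -0.02 and 0.00. That median is of edgeR's fitted differences without the floor, and those of the members are of CPM, so the measures are not alike. Genes at or under the floor in both groups, 4 and 7 B genes and 1 and 2 A genes, had no such value.

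Many of the members fell under the limit of the rule a second time. Of the 33 B genes chosen at meiosis and used in BB at mitosis, 21, or 63.6%, had at most 3 counts in AB at mitosis, where 0.392% of all B genes past the minimum did. Of the 24 chosen at mitosis and used at meiosis, 21, or 87.5%, had at most 3 counts at meiosis, against 0.602%. For A genes these were 3 of 4, against 0.0985%, and 3 of 3, against 0.086%. The 3 of 4 became 3 of 11 without AB replicate 1 at meiosis, 3 of 7 without replicate 2 and 3 of 6 without replicate 3, as more A genes then met the limit at meiosis. Other members were under 10 CPM in the parent at the other stage. At most 3 AB counts were then held by 26 of 31 B genes at mitosis and 17 of 20 at meiosis. For A genes these were 4 of 6 at mitosis and 5 of 8 at meiosis. Of the 31, 20, 6 and 8 genes, the parent itself had 0 counts there in 2, 3, 1 and 2. The share over all genes under 10 CPM in the parent was not computed, so these counts are a description of the members alone.

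**Figure D5:**
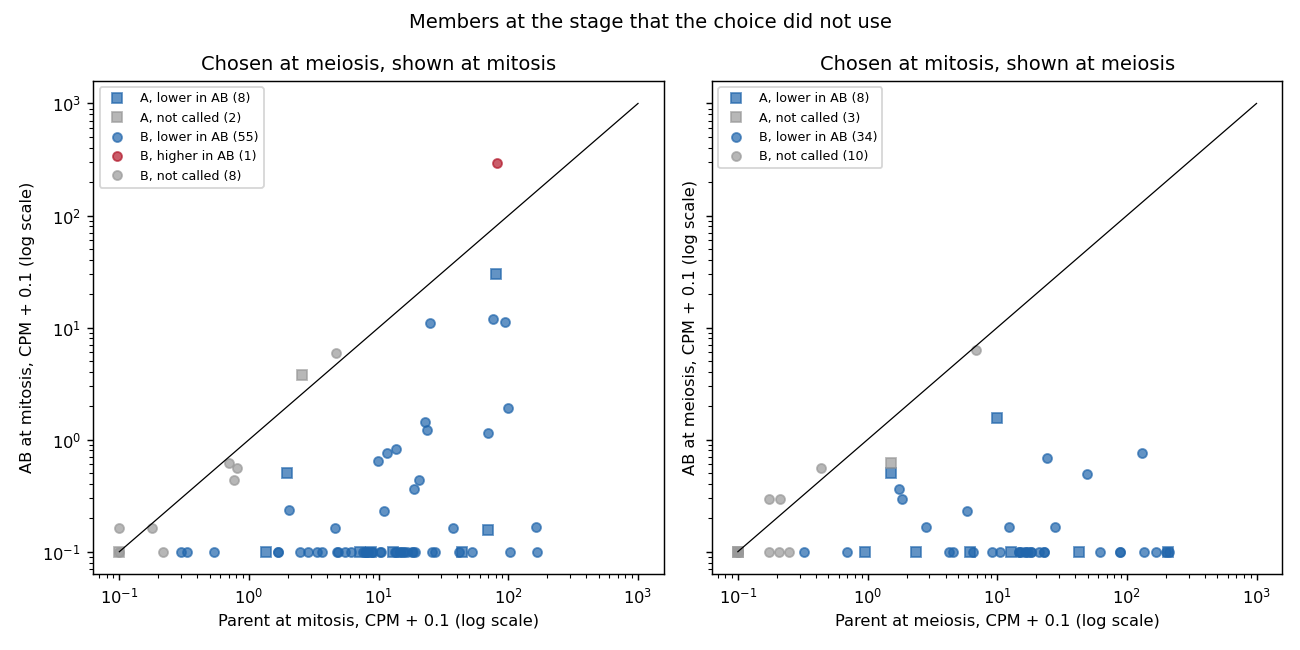
Mean level in AB (vertical axis) against the parent (horizontal axis), as CPM + 0.1 on log scales, for members chosen at meiosis and shown at mitosis (left) and for members chosen at mitosis and shown at meiosis (right); squares are A genes, circles B genes, blue marks genes called lower in AB, red higher and grey not called, and the line marks equal levels. Most blue points lie along the bottom edge at or near 0 in AB, and the single red point, BjuB031328, stands at 297 CPM in AB and 81.1 CPM in BB.

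Among the members named for the lowest fitted log2 differences in these tests, all also met the rule at the tested stage, so their values are given as a description with no test. BjuB018521 had 916, 899 and 816 counts in BB at mitosis and 0, 0 and 0 in AB, so AB was at least 524-fold lower. BjuB044767, described above, was at least 840-fold lower at mitosis. At meiosis BjuB030454 had 1800, 1736 and 1890 counts in BB and 0 in each AB library, at least 1018-fold lower, and BjuB014194 was at least 1070-fold lower. Among A genes, BjuA014168 was at least 252-fold lower at mitosis, and at meiosis BjuA042468 was at least 1182-fold and BjuA035544 at least 245-fold lower. BjuA042468 had a single AB count at mitosis, where its level in AA was 1197 times that in AB, with a 95% counting interval from 215 to 47263. A fitted difference against 0 counts depends on the prior count, so it gives no order among genes at 0.

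A smaller set was undetected in AB at meiosis and well detected at mitosis. Of the 13 members chosen at meiosis whose parent had at least 10 CPM at mitosis and whose AB libraries held over 3 counts there, 5 reached 10 CPM in AB. They are named after their values were seen. BjuB031328 had 115, 102 and 131 counts in BB and 0, 0 and 2 in AB at meiosis, and 751, 675 and 646 in BB and 1357, 1515 and 1655 in AB at mitosis. At mitosis it was higher in AB, at 297 ± 18.95 CPM against 81.1 ± 2.72 CPM, a log2 difference of 1.75 (SE 0.07, edgeR adjusted p = 2.82e-18), and the libraries did not overlap. It was the only member called higher in AB. Its log2 difference was 0.94 with library sizes from all genes, a scaling that lowers the median of all B genes at mitosis to -0.84, and it had 0 counts in all 6 AA libraries.

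In the other 4 of these genes AB was lower than the parent at mitosis. BjuA020535 had 763, 885 and 840 counts in AA and 177, 181 and 164 in AB at mitosis, after 116, 114 and 108 in AA and 1, 0 and 2 in AB at meiosis. Its level was 80.4 ± 5.87 CPM in AA and 30.3 ± 2.74 CPM in AB, a log2 difference of -1.68 (SE 0.10, edgeR adjusted p = 1.6e-12). This gene also had 9, 7 and 2 counts in BB at mitosis. BjuB042838 had 814, 827 and 775 counts in BB and 47, 54 and 70 in AB at mitosis, after 645, 642 and 674 in BB and 0 in AB at meiosis. Its log2 difference at mitosis was -3.20 (SE 0.11, edgeR adjusted p = 5.63e-19). BjuB020249 stood at 75.5 ± 4.40 CPM in BB and 11.9 ± 2.03 CPM in AB at mitosis, and BjuB045037 at 24.7 ± 1.29 and 10.9 ± 3.34 CPM. The parental and AB libraries of all 4 genes were apart at mitosis. The remaining 8 members of the 13, all B genes, lay between 0.264 and 1.83 CPM in AB, where BB had 11.4 to 99.3 CPM.

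The reverse pattern was not seen at such levels. Of the members chosen at mitosis whose parent had at least 10 CPM at meiosis, 3 B genes and 0 A genes held over 3 AB counts at meiosis. They lay between 0.391 and 0.653 CPM in AB and between 24.0 and 130 CPM in BB. BjuB046077, named after its values were seen, had 1219, 1148 and 1181 counts in BB and 3, 4 and 3 in AB at meiosis (log2 difference -7.61, SE 0.18, edgeR adjusted p = 6.78e-23). At mitosis it had 123, 104 and 114 counts in BB and 0 in AB. The 2 stages were not compared in a test.

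The members that were not called at the other stage were mostly genes that the parent hardly used there. Of the 8 B genes not called at mitosis 7 had under 1 CPM in BB, and of the 10 not called at meiosis 9 did. In 3 uncalled members, named after their values were seen, the parent and AB held similar low levels at the other stage. BjuA047126, chosen at meiosis with 339, 219 and 171 counts in AA and 0 in AB, had 23, 36 and 17 counts in AA and 12, 16 and 36 in AB at mitosis. Its log2 difference at mitosis was 0.32, with a 95% interval from -0.47 to 1.11 (edgeR adjusted p = 0.536). BjuB039495, with 194, 193 and 227 counts in BB and 0, 0 and 2 in AB at meiosis, had 41, 39 and 36 in BB and 22, 47 and 19 in AB at mitosis. That difference was 0.22, with an interval from -0.34 to 0.79 (edgeR adjusted p = 0.532). BjuB014681, chosen at mitosis with 109, 114 and 124 counts in BB and 0, 1 and 2 in AB, had 73, 48 and 64 in BB and 33, 26 and 37 in AB at meiosis. Its log2 difference at meiosis was -0.12, with an interval from -0.60 to 0.35 (edgeR adjusted p = 0.691). The libraries of both groups overlapped in these genes once scaled, and the intervals allow a difference in either direction. The tables hold RNA counts alone, and whether a member is present in the DNA of the AB plants was not measured here.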

How the data were processed

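The series measured RNA of anthers in 18 libraries. The deposited table holds raw counts per gene identifier, and the authors' second table holds FPKM. The tools named, per the submitters' processing notes, are HTSeq 0.6.0, TopHat2, HISAT2 2.1.0 and Bowtie 1.0.1. The sources used here do not give the role of each, the genome build, the annotation or the use of strand. FPKM as deposited equals the count divided by a fixed length per gene and the library total (largest relative deviation 5.32e-08), and 99.9% of these lengths are multiples of 3, so they are called coding lengths. A column that repeats another library (1 column) was not used. None of the identifiers matched a RefSeq gene table of Brassica rapa (0 of 51589 genes), so no gene names, gene lists, marker genes or sequences are given.

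CPM was computed from the counts of identifiers of the same genome. Tests used edgeR 4.0.16 in R 4.3.3 (filterByExpr, TMM factors within the genome, quasi-likelihood F test over the 4 groups of a genome, Benjamini-Hochberg over all genes tested), checked on simulated counts. Alternatives were DESeq2 1.42.0, limma 3.58.1 on log2(FPKM + 1), other scalings and filters, a replicate block and libraries left out. Every pair of replicates differed by more than sampling noise (chi-square per degree of freedom 2.297 to 6.912). Genes were named as those with the 2 highest parental CPM per genome and stage, the 2 most extreme calls per direction and test, and the 2 highest among those chosen at both stages. Members and rules were chosen with earlier results of these data known.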

Additional observations from a re-analysis of the deposited data

Results flagged for a closer look

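BjuB031328 was singled out because its stages differ. At mitosis all 3 AB libraries stood above all 3 BB libraries, with a log2 difference of 1.75, while at meiosis all 3 AB libraries, with 0, 0 and 2 counts, stood below the BB libraries, with 115, 102 and 131 counts. The direction at meiosis is fixed by the choice of the gene, and the difference between the stages was not tested.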

How the results depend on the processing

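With a parental minimum of 5 CPM the members chosen were 26 and 21 A genes and 112 and 93 B genes at meiosis and mitosis, and with 20 CPM they were 5 and 4 A genes and 28 and 14 B genes. With 0 counts required in AB, 6 A genes and 28 B genes were chosen at mitosis, and with at most 10 counts allowed 28 A genes were chosen at meiosis. The share of A members chosen at meiosis and used in AA at mitosis that AB again lacked was 75% (3 of 4), and it was 100% with the minimum of 20 CPM (1 of 1) and with CPM of all counts (3 of 3), 42.9% with 5 CPM (6 of 14), 20% with at most 10 counts (3 of 15), and 27.3% to 75% with 1 library left out. Leaving out 1 library moved the A genes chosen at meiosis between 10 and 19. The counts of members lower at the other stage kept within 1.5 times, at 7 to 8 and 6 to 9 A genes and 48 to 58 and 30 to 36 B genes chosen at meiosis and mitosis. These ranges include limma on FPKM and library sizes from all genes, under which most genes of a genome were lower. Examples are 16653 of 23143 A genes at meiosis with limma and 14057 of 21345 B genes at mitosis with those library sizes. With the replicate block, 8 and 8 A genes and 53 and 33 B genes were lower, and same-numbered libraries deviated together by correlations from -0.0104 to 0.019, under the 0.1 set for pairing, although 9 of 12 pairs, all 6 B pairs among them, correlated highest with their own number. BjuB031328 ranged from 0.93, with limma on FPKM, to 1.82 on the log2 scale. Library sizes from all genes moved the median of all genes by -1.08 and -0.64 (A) and -0.91 and -0.84 (B) at meiosis and mitosis. Depth limits every bound to a floor of 3 counts over 3 libraries.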

Other observations

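Some members bear consecutive identifier numbers. They are 7 genes in 3 runs, BjuA037316 with BjuA037317, BjuB006278 to BjuB006280, and BjuB007245 with BjuB007246, and all 7 had 0 counts in all 6 AB libraries. The files do not say whether consecutive numbers are neighbours in the genome, and these genes are named after their values were seen.

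Genes numbered 1 above or 1 below a member, and past the parental minimum without being members, were also looked at. Among B genes at meiosis 22 of 37 were lower in AB (edgeR adjusted p under 0.05) and 8 were higher, or 59.5% lower against 46.3% of all B genes past the minimum, and at mitosis 14 of 27 were lower and 8 higher, 51.9% against 43.1%. Among A genes 5 of 5 were lower at meiosis and 3 of 3 at mitosis, against 34.4% and 42.6%. The median log2 differences of the B genes were -0.340 and -0.344 at meiosis and mitosis, against -0.186 and -0.166 over all B genes past the minimum. For the A genes they were -1.0 and -1.85, against -0.03 and -0.15 over all A genes past the minimum. These are a few genes, and the shares were not tested.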
